A study of Mus musculus with 6 samples.

Results

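The genes described here are 9 extracellular and inhibitory components of bone morphogenetic protein (BMP) signalling in cultured embryonic heart muscle cells: the ligands *Bmp2*, *Bmp4*, *Bmp5*, *Bmp7* and *Bmp10*, the secreted antagonists *Grem1*, *Nog* and *Chrd*, and the intracellular inhibitor *Smad6*. They were taken as a list of mouse symbols and matched to 9 of the 43629 Ensembl genes in the count files, and 7 of the 9 passed the filter on low counts. The list was drawn up with earlier results of the same comparison known, and their values are therefore given as a description, without p-values. Cardiomyocytes were prepared from CD-1 mouse ventricles at embryonic day 13.5 and received either a non-targeting control (negative siRNA) or DNMT1 siRNA, both at 12 nM, and RNA was collected after 72 h from 3 cultures of each. DNMT1 is the enzyme that copies DNA methylation at CG dinucleotides onto the new strand after replication, and the comparison asks which transcripts differ when its mRNA is lowered. The DNMT1 reagent was a mixture of 4 siRNAs, ventricles of one litter were pooled, and cells were magnetically sorted on the surface protein VCAM1 before polyadenylated RNA was sequenced. The labels do not say whether the 3 cultures of a treatment came from separate litters, and p-values then measure the spread between these cultures, which may be technical. A treatment tag of the DNMT1 siRNA cultures names DNMT3a, whereas their titles name DNMT1 and were followed.

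BMPs are secreted dimers of the TGF-β superfamily that bind pairs of type I and type II serine/threonine kinase receptors and lead to phosphorylation of SMAD1, SMAD5 and SMAD9, which enter the nucleus with SMAD4 and switch on genes such as the *Id* family. Gremlin 1, noggin and chordin bind BMPs outside the cell and keep them from their receptors, while SMAD6 blocks the pathway inside the cell and is itself a well known transcriptional target. In the embryonic heart, BMP2 and BMP4 are known for roles in cardiac specification and in the cushions and outflow tract, and BMP10 for growth of the trabecular ventricular wall.

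Of the 7 tested genes, *Bmp4* was 1.56-fold and *Smad6* 1.54-fold higher and *Grem1* 3.98-fold lower with DNMT1 siRNA, and the values of the 3 negative and the 3 DNMT1 siRNA cultures did not overlap for these 3 genes. *Nog* and *Bmp7* had higher means and *Chrd* and *Bmp2* lower means with DNMT1 siRNA, but in each of these 4 the cultures of both treatments overlapped. *Bmp5* and *Bmp10* had at most 9 reads in any culture. A gene was called when edgeR's quasi-likelihood test gave a false discovery rate (FDR) below 0.05 over the 15470 genes tested and the absolute fold change was above 1.5. By these limits 3 of the 7 were called, 2 higher and 1 lower, beside 6.49% of all genes tested (4.26% higher and 2.23% lower), and the groups were without overlap for 36.0% of all genes tested. Since the genes were picked with this comparison in view, nothing is read from these counts.

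The libraries and the cells differed between treatments in other ways, whose part in the results for the BMP genes was not tested. Reads on genes numbered 27852412 to 35896018 per negative siRNA library and 13739561 to 16186310 per DNMT1 siRNA library. The share of reads outside annotated exons was 16.4% ± 1.58 and 29.3% ± 4.23 (exact permutation test, two-sided p = 0.1, the smallest that 3 against 3 can give). *Dnmt1* fell from 2760 to 3447 normalised counts, which are reads scaled to a common library size, to 666 to 786, with a log2 fold change (log2FC) of −2.03 and a standard error (SE) of 0.11 (edgeR, adjusted p = 0.000192), whereas *Dnmt3a* had 0.24 (SE 0.080, adjusted p = 0.0919). Of the cardiomyocyte markers, 8 of 10 were called higher, and their summed level was 2148 to 2839 library-scaled counts (CPM) with negative siRNA and 5050 to 6216 with DNMT1 siRNA. Of the fibroblast and mesenchymal markers, 3 of 10 were called lower (*Col1a1*, *Col1a2* and *Dcn*), while *Thy1* passed the FDR limit in the other direction under the fold limit (log2FC 0.36, SE 0.066, adjusted p = 0.0137) and *Tcf21* had 0.0052 (SE 0.086, adjusted p = 0.976). Their sum was 57294 to 75727 and 45858 to 48419 CPM, of which *Col1a1*, *Fn1*, *Col1a2* and *Col3a1* made up 97.1% to 97.9%, and the other 6 genes summed to 1476 to 1578 and 1309 to 1419, a split made after the data were seen. Both lists were well expressed in cells labelled as cardiomyocytes: *Tnnt2*, cardiac troponin T, was at 100.2 and 153 RPKM, the CPM per kilobase of exon, but *Col1a1*, a collagen chain, at 3542 and 2251. Endothelial and endocardial markers summed to 93.2 to 123 and 213 to 227, with 3 of 8 called higher (*Kdr*, *Emcn* and *Npr3*). *Npr3* carried most of this difference: without it, a choice made after the data were seen, the other 7 summed to 75.5 to 115 and 105.6 to 123, which overlapped, and *Tek* passed the FDR limit in the other direction under the fold limit (log2FC −0.35, SE 0.087, adjusted p = 0.0373). That sum of 7 weighs *Tek* and *Nfatc1* most, at 30.6 and 19.6 CPM in the controls, and neither rose. By gene, 6 of the 8 were higher and 1 lower at an unadjusted p below 0.05, and DESeq2 called 4 higher. Of the epicardial markers 1 of 8 was called lower (sums 1973 to 2347 and 2272 to 2384). Of the 6 smooth muscle and pericyte markers 5 were tested and 1 was called lower (436 to 581 and 429 to 435). Of the 6 macrophage and blood markers 4 were tested and none was called by edgeR's quasi-likelihood test (7.93 to 16.8 and 7.41 to 11.1). In that list 2 were lower at an unadjusted p below 0.05 and by DESeq2. In bulk RNA, fewer cells of a type and less RNA per cell cannot be told apart, which applies to *Grem1*, *Bmp4* and *Smad6* alike. Negative siRNA culture 2 was the highest or lowest control for 7 of the 9 genes. With 3 controls a given culture is often one or the other, and the share over all genes was not computed, so nothing is read from this count. Among the controls, culture 2 had the highest summed level of cardiomyocyte, fibroblast, endothelial, smooth muscle and macrophage markers and the lowest of epicardial markers. Whether this bears on the BMP genes was not tested.

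**Figure D1:**
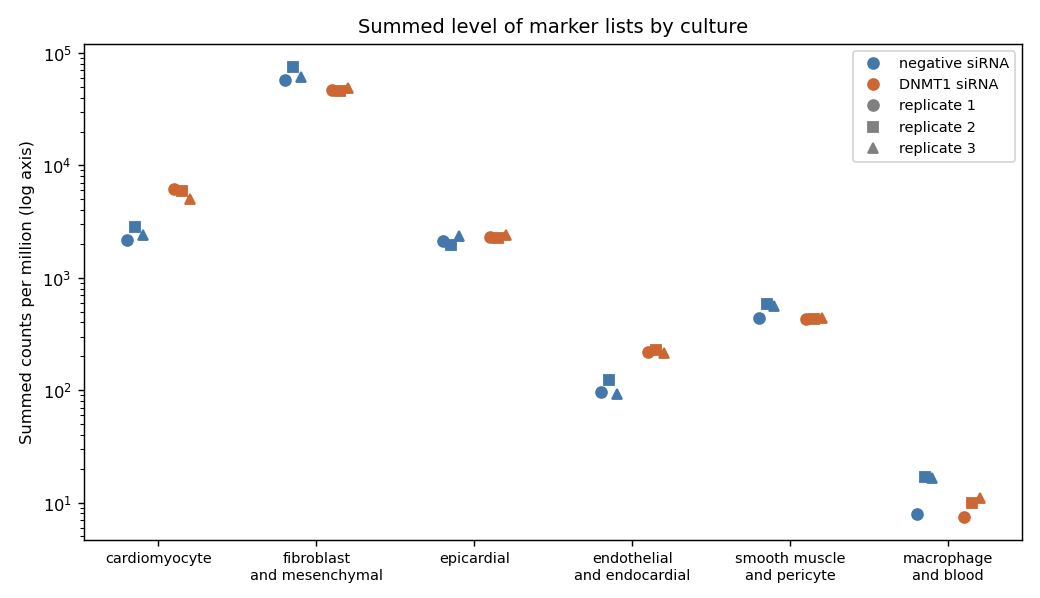
Summed CPM (log axis) of 6 marker lists in each culture, negative siRNA in blue and DNMT1 siRNA in orange, with the replicate number as the symbol. The cardiomyocyte and endothelial sums were higher and the fibroblast and the smooth muscle sums lower in all 3 DNMT1 siRNA cultures than in any control, but the endothelial sums overlapped without *Npr3*. The smooth muscle sums barely separated, at 436 in the lowest control and 435 in the highest DNMT1 siRNA culture.

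DNMT1 siRNA acts on a methyltransferase of CG dinucleotides, and the 250 bases upstream of the start site are therefore shown for the 3 called genes, 5′ to 3′ on the strand of the gene, with each CG in capitals. The sequences are RefSeq's on GRCm38.p6, and all 3 genes lie on the minus strand, *Grem1* at chr2:113758649-113758898, *Bmp4* at chr14:46390670-46390919 and *Smad6* at chr9:64022060-64022309.
Grem1: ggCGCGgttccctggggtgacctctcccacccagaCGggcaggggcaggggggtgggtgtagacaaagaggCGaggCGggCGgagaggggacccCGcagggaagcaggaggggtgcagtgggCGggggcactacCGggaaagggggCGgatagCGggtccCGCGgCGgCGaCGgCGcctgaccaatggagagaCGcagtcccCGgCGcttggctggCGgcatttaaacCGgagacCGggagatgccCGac
Bmp4: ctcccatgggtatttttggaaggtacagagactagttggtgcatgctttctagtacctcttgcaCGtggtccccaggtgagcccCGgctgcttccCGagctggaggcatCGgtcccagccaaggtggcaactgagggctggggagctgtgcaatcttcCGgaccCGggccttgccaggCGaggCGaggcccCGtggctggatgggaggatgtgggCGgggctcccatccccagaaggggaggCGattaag
Smad6: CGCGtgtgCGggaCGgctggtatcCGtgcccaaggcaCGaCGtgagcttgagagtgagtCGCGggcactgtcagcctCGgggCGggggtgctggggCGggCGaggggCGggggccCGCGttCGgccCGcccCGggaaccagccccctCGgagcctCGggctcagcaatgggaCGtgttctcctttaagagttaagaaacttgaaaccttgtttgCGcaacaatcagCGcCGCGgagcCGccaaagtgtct
The 250 bases hold 24 CG in *Grem1*, 11 in *Bmp4* and 27 in *Smad6*. *Grem1*, which was lower, and *Smad6*, which was higher, both carry many, and *Bmp4* carries fewer.

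The promoter table matched 6 of the 9 genes, with a window of 300 bases that ends 50 bases after the start site. Over the whole window *Chrd* had 34 CG, more than 92.3% of the 32851 promoters in the table, *Smad6* 31 (89.4%) and *Grem1* 28 (85.8%), beside a median of 7 over all promoters. *Bmp4* had 12 CG (60.4%), and the 2 genes with hardly any reads, *Bmp5* and *Bmp10*, had 4 (31.4%) and 3 (23.3%). The SMAD-binding motif GGCGCC, which reads the same on both strands, occurred once in the windows of *Grem1* and *Chrd* and in none of the other 4, while 11.87% of all promoters hold it. CAGAC, searched on both strands, occurred 2 times in *Grem1* and once each in *Chrd* and *Bmp5*, and is held by 49.59% of all promoters. Methylation of these windows was not measured in the count files, and the matches describe the letters only.

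Among the ligands, *Bmp4* (ENSMUSG00000021835, chr14:46383520-46390669, minus strand) had the highest level per exon length of the 5 examined. Its normalised counts were 3184, 2671 and 3213 in the negative siRNA cultures and 4567, 4799 and 4754 in the DNMT1 siRNA cultures. Every DNMT1 siRNA culture lay above every control culture, and negative siRNA culture 2 was the lowest of the 6. The means were 3023 ± 305 and 4707 ± 123 (SD, n = 3), a log2FC of 0.64 (SE 0.084). Without negative siRNA culture 2 the value was 0.56, below the limit on fold change, and the gene was no longer called. An exon of *Bmp4* shares 89 bp with *Gm15217* on the opposite strand, which had 10 to 26 reads per culture, and how strand was treated in counting is not given in the sources used here.

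*Bmp7* (ENSMUSG00000008999, chr2:172868012-172940321, minus strand), a ligand known for its part in kidney and eye development, had 50.2, 122 and 46.7 normalised counts with negative siRNA and 138, 115 and 101 with DNMT1 siRNA. Negative siRNA culture 2 was more than 2 times as high as the other controls and lay among the DNMT1 siRNA cultures. The means were 73.0 ± 42.5 and 118 ± 18.5, with a log2FC of 0.70 (SE 0.37) that was not called. Without negative siRNA culture 2 the log2FC was 1.29 and *Bmp7* was called.

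*Bmp2* (ENSMUSG00000027358, chr2:133552159-133562885, plus strand), a close relative of *Bmp4*, had 35.0, 97.9 and 42.0 normalised counts with negative siRNA and 25.5, 33.5 and 52.3 with DNMT1 siRNA. Here too negative siRNA culture 2 stood above the other 5 cultures, which overlapped. The log2FC was −0.66 (SE 0.45, means 58.3 ± 34.5 and 37.1 ± 13.8) and was not called, and it was −0.07 without negative siRNA culture 2.

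*Bmp10* (ENSMUSG00000030046, chr6:87428994-87437677, plus strand), a ligand of the heart muscle wall, had 6, 9 and 3 reads with negative siRNA and 0, 1 and 2 with DNMT1 siRNA. Once scaled for depth the groups overlapped, with 2.3 normalised counts in negative siRNA culture 3 and 3.3 in DNMT1 siRNA culture 3. Over the 3 cultures together this was 0.189 CPM with negative siRNA (exact Poisson 95% interval 0.112 to 0.299) and 0.0666 (0.0137 to 0.195) with DNMT1 siRNA, and the intervals, which cover counting error only, overlapped. *Bmp5* (ENSMUSG00000032179, chr9:75775364-75900310, plus strand) had 0, 0 and 2 reads with negative siRNA and 0, 1 and 1 with DNMT1 siRNA, or 0.021 (0.0025 to 0.0759) and 0.0444 (0.0054 to 0.161) CPM. A count of 0 in a culture allows up to 3 reads, which is 0.0836 to 0.108 CPM in the negative siRNA libraries and 0.185 to 0.218 in the shallower DNMT1 siRNA libraries. Neither gene passed the filter, a difference was not detectable at this depth, and no fold change is given. *Bmp5* also shares 1878 bp of exon with *Gm26903* on the opposite strand.

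**Figure D2:**
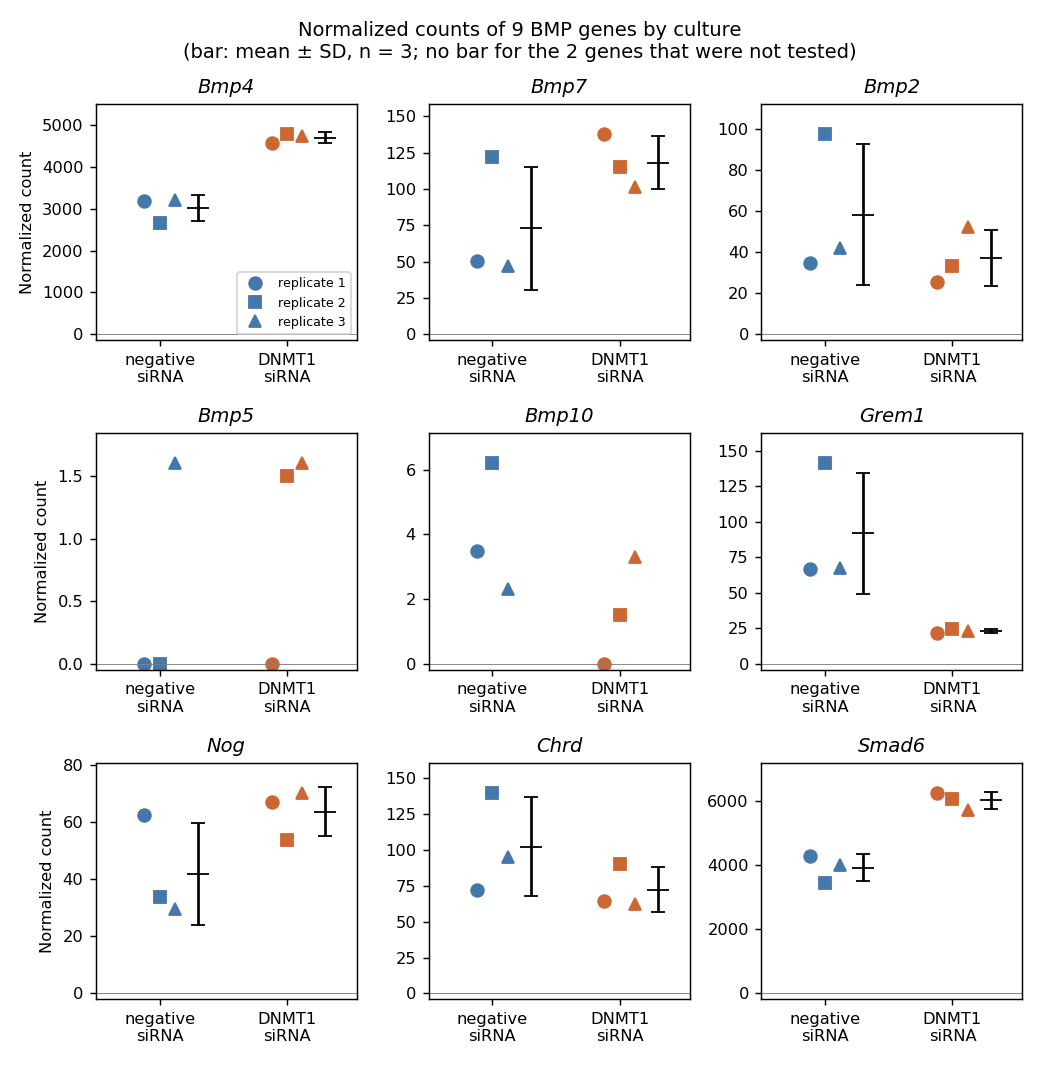
Normalised counts (vertical axes, each on its own scale) of the 9 genes in the 3 negative siRNA (blue) and 3 DNMT1 siRNA (orange) cultures, with the replicate number as the symbol and the mean ± SD beside the 7 tested genes. The groups stand apart for *Bmp4*, *Grem1* and *Smad6*, and the squares show negative siRNA culture 2 as the highest control for *Bmp7*, *Bmp2*, *Bmp10*, *Grem1* and *Chrd* and the lowest for *Bmp4* and *Smad6*.

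Among the antagonists, *Grem1* (ENSMUSG00000074934, chr2:113746164-113758646, minus strand) had the largest difference. Gremlin 1 is a cystine-knot protein that binds BMP2, BMP4 and BMP7. It had 67.1, 141 and 67.7 normalised counts with negative siRNA and 21.5, 24.8 and 22.9 with DNMT1 siRNA. The DNMT1 siRNA cultures were all lower than the lowest control and lay close together, and negative siRNA culture 2 was again the highest of the 6. The means were 92.0 ± 42.7 and 23.0 ± 1.67, a log2FC of −1.99 (SE 0.36), and the DNMT1 siRNA values rest on 14 to 17 reads per library. The value stayed between −2.18 and −1.54 when each culture was left out in turn. It was no longer called without DNMT1 siRNA culture 1, 2 or 3 (−2.05 to −1.97), fits in which the genes called over the whole table also fell in number from 659 higher and 345 lower to at most 316 and 146.

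*Nog* (ENSMUSG00000048616, chr11:89300638-89302332, minus strand) encodes noggin, which sequesters BMP4 with high affinity. It had 62.4, 33.8 and 29.5 normalised counts with negative siRNA and 67.0, 53.9 and 70.3 with DNMT1 siRNA. Only negative siRNA culture 1 reached into the range of the DNMT1 siRNA cultures. The log2FC was 0.59 (SE 0.31, means 41.9 ± 17.9 and 63.8 ± 8.67), not called. Without negative siRNA culture 1 it was 1.00 and the gene was called.

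*Chrd* (ENSMUSG00000006958, chr16:20733127-20742384, plus strand) encodes chordin, which releases bound BMP when it is cut by BMP1 and the tolloid proteases. It had 72.4, 140 and 94.9 normalised counts with negative siRNA and 64.4, 90.4 and 62.1 with DNMT1 siRNA. The values of the treatments overlapped, and the log2FC of −0.50 (SE 0.28, means 102 ± 34.4 and 72.3 ± 15.7) was not called with all samples or without any one culture (−0.70 to −0.20). *Chrd* shares 239 bp of exon with *Thpo* on the opposite strand, which had 2 to 15 reads per culture.

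*Smad6* (ENSMUSG00000036867, chr9:63953076-64022059, minus strand), the intracellular inhibitor, had 4302, 3460 and 4009 normalised counts with negative siRNA and 6262, 6081 and 5736 with DNMT1 siRNA. All DNMT1 siRNA cultures were above all controls, with negative siRNA culture 2 lowest. The means were 3924 ± 427 and 6026 ± 268, a log2FC of 0.62 (SE 0.090). It fell below the limit on fold change without negative siRNA culture 2 (0.54) and without DNMT1 siRNA culture 1 (0.57).

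The spread between control cultures thus differed widely among the 7 tested genes. The coefficient of variation in the negative siRNA cultures was 10.1% for *Bmp4* and 10.9% for *Smad6*, but 33.6% for *Chrd*, 42.7% for *Nog*, 46.4% for *Grem1*, 58.3% for *Bmp7* and 59.1% for *Bmp2*. In the DNMT1 siRNA cultures it was smaller for each of the 7, from 2.61% for *Bmp4* to 37.1% for *Bmp2*. Over the whole gene table, pairs of DNMT1 siRNA cultures also differed less than pairs of controls. The smaller spread can therefore not be called particular to these genes.

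**Figure D3:**
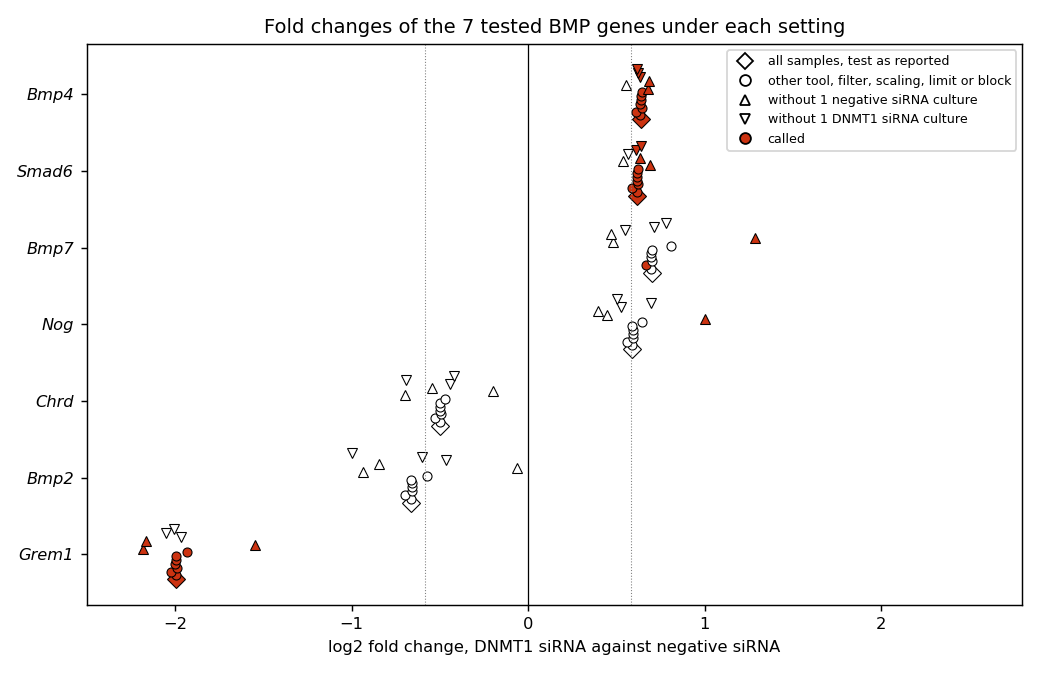
Log2 fold change (horizontal axis, DNMT1 siRNA against negative siRNA) of the 7 tested genes with all cultures as tested (diamonds), under other tools, filters, scalings, limits or a replicate block (circles), and without 1 culture (triangles). Filled symbols are called, dotted lines mark the 1.5-fold limit, and no gene crosses 0.

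Levels can be compared between genes only per length, and are given as RPKM. With negative siRNA, *Bmp4* had 61.9 ± 6.25 RPKM and *Smad6* 56.4 ± 6.14, and their cultures overlapped. The other 5 tested genes lay between 0.754 for *Chrd* and 1.14 for *Nog*, and each overlapped with its neighbour in the order *Nog*, *Grem1*, *Bmp7*, *Bmp2* and *Chrd*. *Bmp10* (0.0412) and *Bmp5* (0.0059) came last.

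With DNMT1 siRNA the order was *Bmp4* (96.4 ± 2.52), *Smad6* (86.6 ± 3.84), *Nog* (1.73 ± 0.236), *Bmp7* (1.35 ± 0.213), *Chrd* (0.532 ± 0.116), *Bmp2* (0.481 ± 0.179) and *Grem1* (0.256 ± 0.0185). *Grem1* was at rank 4 of the 9 genes with negative siRNA, where it overlapped with its neighbours. With DNMT1 siRNA it was at rank 7, below every culture's value for *Bmp2*. *Nog* and *Bmp7* overlapped with each other, as did *Chrd* and *Bmp2*. Within single cultures, *Bmp4* exceeded *Grem1* by 34.9 to 87.6 times in RPKM with negative siRNA and by 357 to 393 times with DNMT1 siRNA. These 2 ranges could not overlap, since *Bmp4* was higher and *Grem1* lower in every DNMT1 siRNA culture than in any control. They restate the values of the 2 genes and add no further result. *Bmp4* exceeded *Nog* by 38.5 to 82.0 and 51.0 to 67.1 times, which do overlap.

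The rest of the pathway was described with 78 further genes in 6 lists by role, of which 62 passed the filter. Adjusted p-values (Benjamini-Hochberg, all 15470 genes) are from edgeR's quasi-likelihood fit. In all, 7 were called higher and 5 lower, beside 4.26% and 2.23% of all genes tested, with a median log2FC of 0.04 beside −0.0049 for all genes tested. Without the limit on fold change 14 were higher and 5 lower, beside 1054 and 874 of all 15470 genes tested. The calls of *Inhba*, *Nbl1*, *Pcsk5*, *Pcsk6* and *Hfe2* held without each culture in turn. Those of *Rgma*, *Fstl3*, *Sost*, *Tbx2*, *Tbx20*, *Hand1* and *Hey1* were lost without any one of the DNMT1 siRNA cultures, which left 3 called higher and 2 lower. Exons of *Bmp6*, *Kcp*, *Bmpr1a* and *Id4* overlap a gene on the opposite strand and those of *Pcolce* 1 on the same strand, so that their counts are less certain.

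Of 12 other ligands, 5 were tested and only *Inhba*, the βA subunit of activins and a ligand of the activin rather than the BMP receptors, was called. It fell from 1028 to 1357 normalised counts in the controls to 516 to 664 with DNMT1 siRNA, a log2FC of −1.13 (SE 0.14, adjusted p = 0.00281). *Gdf6*, a BMP-family ligand known from joint and eye development, had the highest level of all ligands examined, 125 ± 10.9 RPKM with negative siRNA and 129 ± 4.97 with DNMT1 siRNA (log2FC 0.04, SE 0.081, adjusted p = 0.767). In RPKM it exceeded *Bmp4* by 1.76 to 2.49 times in the control cultures and by 1.25 to 1.39 times in the DNMT1 siRNA cultures. *Bmp6*, named after its values were seen, passed the FDR limit at a fold change under 1.5 (log2FC 0.50, SE 0.077, adjusted p = 0.00652; 602 and 852 normalised counts). *Bmp3*, named likewise, an atypical member that counters BMP signals in bone, had 135 to 226 normalised counts in the controls and 264 to 290 with DNMT1 siRNA (log2FC 0.72, SE 0.20, adjusted p = 0.05003) and narrowly missed the FDR limit. It was called under RLE scaling, DESeq2 and the exact test, and without negative siRNA culture 2 (0.99). The 5 tested ligands had a median of 0.43.

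Of 16 other antagonists and modulators, 10 were tested, 1 was called higher and 2 lower, and their median was −0.16. *Nbl1*, a DAN-family antagonist of BMPs related to gremlin, fell from 937 to 1033 normalised counts to 525 to 550, with a log2FC of −0.89 (SE 0.076, adjusted p = 0.000781). *Fstl3*, a follistatin-like protein that binds activins, fell from 362 to 583 to 252 to 299 (−0.68, SE 0.18, adjusted p = 0.0460), and without negative siRNA culture 2 it was −0.45. It shares 1157 bp of exon with *Prss57* on the opposite strand. *Sost*, the gene of sclerostin, which is known mainly as a Wnt inhibitor, rose from 9.0 to 36.5 normalised counts to 58.9 to 77.8 (1.71, SE 0.44, adjusted p = 0.0400). It was not called without negative siRNA culture 1 (1.60). *Fstl1*, a secreted glycoprotein that binds BMP4, had the highest level of the list, 779 ± 44.6 and 677 ± 34.7 RPKM, with a log2FC of −0.20 (SE 0.083, adjusted p = 0.148). *Kcp*, a chordin-like protein named after its values were seen, had 112 normalised counts in negative siRNA culture 1, below all DNMT1 siRNA cultures (118 to 137), but 410 and 353 in the other controls. Its log2FC was −1.18 (SE 0.42, adjusted p = 0.106), and −1.57 and called without negative siRNA culture 1.

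BMPs are made as precursors that proprotein convertases cut, and the convertase genes *Pcsk5* and *Pcsk6* were called higher. The convertase gene *Furin*, named after its values were seen, was not called. It passed the FDR limit under the fold limit (log2FC 0.34, SE 0.074, adjusted p = 0.0244), at 31.9 and 40.2 RPKM. *Pcsk5* went from 914 to 1198 normalised counts to 1830 to 1987 (log2FC 0.85, SE 0.10, adjusted p = 0.00253), and *Pcsk6* from 2116 to 2544 to 3436 to 3729 (0.66, SE 0.087, adjusted p = 0.00340). Of the 7 listed processing genes 6 were tested, and the median was 0.21. None was called lower by edgeR or DESeq2, and 1 was lower at an unadjusted p below 0.05. *Pcolce*, an enhancer of the BMP1 protease, had the highest count in the list, at 98.3 and 104 RPKM (0.08, SE 0.076, adjusted p = 0.530).

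All 14 receptors and coreceptors were tested, 2 were called higher, and the median was 0.23. None was called lower by edgeR or DESeq2, and 1 was lower at an unadjusted p below 0.05. Both called genes encode coreceptors of the repulsive guidance molecule (RGM) family, which present BMPs to their receptors, but *Rgmb*, the other RGM gene of the list, had 1127 ± 29.3 and 1139 ± 54.3 normalised counts (log2FC 0.02, SE 0.070, adjusted p = 0.905). *Hfe2*, the gene of hemojuvelin, known from skeletal muscle and liver, rose from 11.1, 24.1 and 31.9 normalised counts to 197, 155 and 160 (log2FC 2.95, SE 0.33, adjusted p = 0.00199). *Rgma* rose from 313 to 458 normalised counts to 663 to 692 (0.79, SE 0.13, adjusted p = 0.00967), and it shares 258 bp with *A730056A06Rik* on the opposite strand. The RGM receptor *Neo1*, at 33.5 and 45.1 RPKM, passed the FDR limit with a log2FC of 0.43 (SE 0.066, adjusted p = 0.00642), below the limit on fold change. Of the BMP receptors, both named after their values were seen, the type I receptor *Bmpr1a* behaved likewise (0.36, SE 0.067, adjusted p = 0.0149), and the type II receptor *Bmpr2* had a log2FC of 0.06 (SE 0.072, adjusted p = 0.593).

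**Figure D4:**
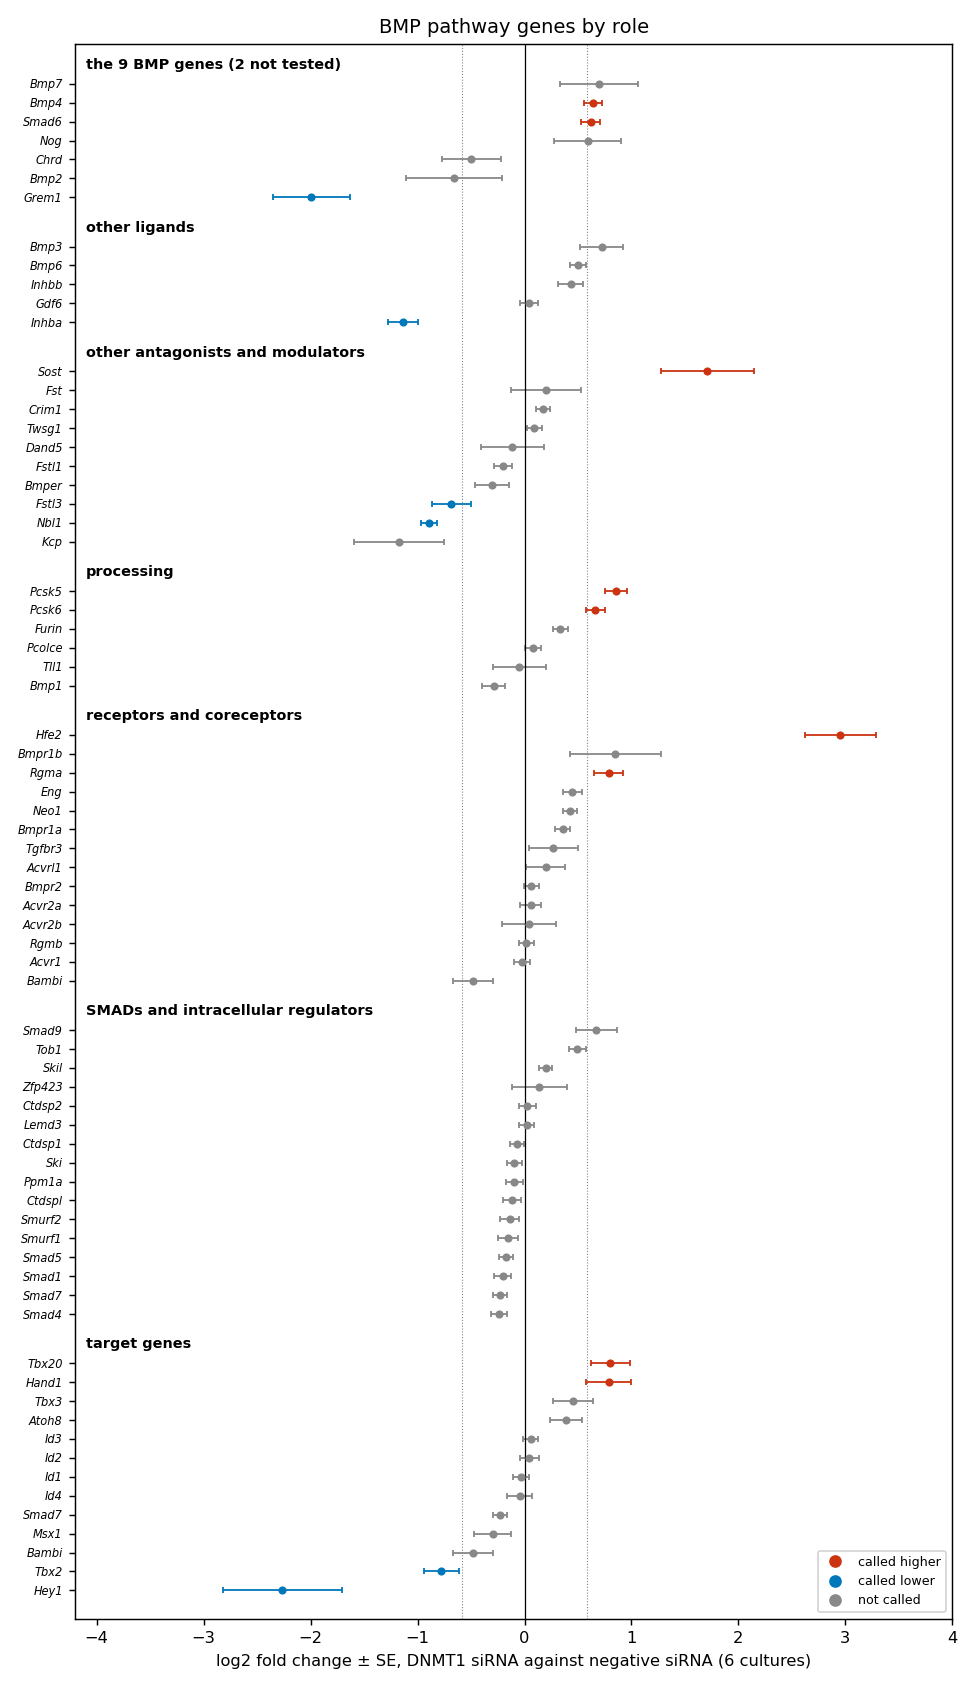
Log2 fold change ± SE (horizontal axis, DNMT1 siRNA against negative siRNA, 6 cultures) of the tested genes of the pathway, grouped by role, with called genes in red (higher) or blue (lower) and dotted lines at 1.5-fold. *Smad7* and *Bambi* are in 2 lists, the SMAD list has no called gene, and *Hfe2*, *Hey1* and *Grem1* lie farthest from 0.

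None of the 16 SMADs and intracellular regulators was called, all of them tested, with a median of −0.10. At an unadjusted p below 0.05, 3 were higher and 4 lower, and DESeq2 called 1, *Smad9*. *Tob1*, an anti-proliferative protein that binds SMADs, had the smallest adjusted p (log2FC 0.49, SE 0.081, adjusted p = 0.00830), at a fold change under the limit. *Ski*, a SMAD corepressor, was the most abundant by count (76.9 and 72.0 RPKM; −0.10, SE 0.070, adjusted p = 0.408). *Smad7* and *Smad9* were named after their values were seen. *Smad7*, the other inhibitory SMAD, had a log2FC of −0.23 (SE 0.070, adjusted p = 0.0678), on the other side of 0 from *Smad6*. *Smad9*, a receptor-activated SMAD, had 235 to 397 normalised counts in the controls and 449 to 487 with DNMT1 siRNA (0.67, SE 0.19, adjusted p = 0.0557).

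Of 15 known target genes of BMP signalling, 13 were tested, 2 were called higher and 2 lower, and the median was −0.03. The 4 *Id* genes, inhibitors of basic helix-loop-helix factors and the usual readout of the pathway, were named after their values were seen and had log2FC values of −0.03 (*Id1*, SE 0.079, adjusted p = 0.814), 0.04 (*Id2*, SE 0.090, adjusted p = 0.782), 0.06 (*Id3*, SE 0.072, adjusted p = 0.639) and −0.05 (*Id4*, SE 0.12, adjusted p = 0.826). *Id1* and *Id3* were at 85.9 and 103 RPKM in the controls, so that reads were not scarce. For *Id1*, *Id2* and *Id4* the sign turned without 1 culture, at sizes of at most 0.03.

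The called target genes were all T-box, HAND or Hairy-related transcription factors of the developing heart. *Tbx20* rose from 8996 to 16301 normalised counts to 21746 to 22491 (log2FC 0.80, SE 0.18, adjusted p = 0.0281), and without negative siRNA culture 3 it was 0.81 and not called. *Hand1* rose from 50.3 to 82.4 normalised counts to 107 to 125 (0.79, SE 0.21, adjusted p = 0.0457), and was not called without negative siRNA culture 1 (0.79). *Tbx2* fell from 178 to 258 normalised counts to 121 to 137 (−0.78, SE 0.17, adjusted p = 0.0221). *Hey1* fell from 10.5 to 22.1 normalised counts to 1.3 to 5.8 (−2.26, SE 0.56, adjusted p = 0.0357). These rest on 18 to 32 and 1 to 4 reads per culture, too few to pass the filter without negative siRNA culture 2 or 3.

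The genes whose levels ran most like those of the 2 extreme called genes were found by Pearson's r of log2 CPM over the 6 cultures, which are split by treatment. For *Bmp4* they were *Tigd4* (r = 0.998), *Npr3*, the natriuretic peptide clearance receptor (0.998), and *Zfp976* (0.996). For *Grem1* they were *Selenow* (0.997), *Scpep1* (0.997) and *Dkk3* (0.996). With 6 points, r exceeded 0.95 for 446 of the 15469 other genes with *Bmp4* and for 384 with *Grem1*. High values were therefore not particular to the genes named.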

How the data were processed

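Primary cardiomyocytes were sequenced as single-end poly(A) RNA-Seq. The authors cleaned the reads with FastQC, aligned them to mm10 (GRCm38) by TopHat2 and assigned them to Ensembl genes by HTSeq, per the study's methods and the submitters' processing notes, and deposited raw counts, 1 file per sample. Counts were not normalized, no file holds a column of another sample (0), and the counter's totals of reads on no gene were kept out of library sizes and tests. Those reads on no feature made up 14.6% to 32.0% of a library. The strand setting and the tools' versions are not given in the sources used here.

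The tests were run under R 4.3.3 using edgeR 4.0.16 and limma 3.58.1 (TMM, filterByExpr with a minimum count of 10 and total of 15, glmQLFit and glmQLFTest without a block), on all 6 samples and the whole gene table, with Benjamini-Hochberg adjustment over 15470 genes. SE is the size of the log2 fold change over √F. Normalised counts are counts scaled to the geometric mean of the TMM-corrected library sizes. RPKM used TMM-scaled counts and the union of exons in GENCODE M21 (GRCm38), which is newer than the authors' Ensembl annotation and holds 42548 of the 43629 genes. All gene symbols listed matched. Python 3.11.15, pandas 2.3.3, numpy 2.4.6, scipy 1.17.1 and matplotlib 3.10.9 were used for the rest, and log2 CPM had a prior count of 2. The pipeline was tested on simulated data.

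The 9 genes, the pathway lists and the marker lists were chosen with earlier results of these data known. Genes named from the pathway lists were every called gene and, per list, that with the highest mean CPM and that with the smallest adjusted p, and any other gene named, marker genes included, was chosen after its values were seen. Alternatives were RLE scaling, no filter, at least 10 counts in every sample, DESeq2 1.42.0, edgeR's exact test, no limit on fold change, a replicate block, each culture left out, and the longest transcript as length. Pairs of replicates differed by more than counting noise. The chi-square per degree of freedom was 26.4 to 54.5 for pairs of negative siRNA cultures and 2.70 to 9.86 for pairs of DNMT1 siRNA cultures, a measure that also depends on depth. Proteins of the 9 genes were not compared here. With 3 cultures per treatment, genes with few reads have wide standard errors.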

Additional observations from a re-analysis of the deposited data

How the results depend on the processing

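Of 49 log2 fold changes of the 7 tested BMP genes under alternatives that kept all samples, 48 stayed on the same side of the limits with the same sign, and *Bmp7* was called without a filter on low counts (0.67), where the median of all genes moved to 0.11. The alternative without a limit on fold change reuses the main fit, so the values of the 7 genes could not differ there. Leaving out 1 culture at a time, the values ran from −2.18 to −1.54 for *Grem1*, 0.40 to 1.00 for *Nog*, 0.56 to 0.69 for *Bmp4*, 0.47 to 1.29 for *Bmp7* and 0.54 to 0.69 for *Smad6*, and calls among the 9 genes from 1 to 3 higher and from 0 to 1 lower. For the other pathway genes they ran from 3 to 8 higher and from 2 to 6 lower, beside 7 and 5 with all samples and 14 and 5 without a limit on fold change. Leaving out a culture also turned the sign for *Gdf6* (range −0.015 to 0.11), *Id1* (−0.097 to 0.033), *Id2* (−0.0077 to 0.14) and *Id4* (−0.11 to 0.0035). The cause was not tested. Deviations from the group means correlated at 0.0064, −0.0208 and 0.0274 between samples that share a replicate number. Between samples with different numbers they ran from −0.0764 to 0.0650. The labels do not say whether the number pairs cultures, and so few pairs cannot settle it. With the replicate block, 5 pathway genes were called higher and 3 lower (*Fstl3*, *Sost*, *Tbx2* and *Hand1* were lost), calls over all genes went from 659 higher and 345 lower to 513 and 285, and *Bmp4*, *Smad6* and *Grem1* were still called. Over all genes, no filter gave 994 and 701 calls, and no limit on fold change 1054 and 874. Leaving out a control culture gave 630 to 823 and 345 to 472 calls, but leaving out a DNMT1 siRNA culture 255 to 316 and 112 to 146. The cause of this difference was not tested. With the longest transcript as length, *Chrd* had 1.07 and 0.756 RPKM, and with DNMT1 siRNA *Bmp4* had 105.02 and *Smad6* 93.4. Depth limits *Bmp5*, *Bmp10*, *Hey1* and, with DNMT1 siRNA, *Grem1*.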
